A study of Homo sapiens with 2 samples.

Results

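The factors that dismantle messenger RNA were examined as 47 genes in 5 groups: the UPF and SMG factors of nonsense-mediated decay (NMD), the exon junction complex, the decapping enzymes with the 5′ exonuclease, the deadenylases, and the exosome. Members were the rows whose Ensembl gene ID, without its version, matches one of the 47 symbols in a table of gene names. Of the 47, 45 had a row among the 57820 gene IDs of both libraries. The IDs given for RBM8A, the partner of MAGOH in the exon junction complex, and DCP1A, a decapping activator, matched no row, so these genes were not analysed here. RNA came from HEK293T, a human embryonic kidney cell line that carries the SV40 large T antigen. Cells given an siRNA against SRα supplied 1 library and cells given a control siRNA the other. SRα, encoded by SRPRA, is the alpha subunit of the receptor that docks translating ribosomes bound by the signal recognition particle at the endoplasmic reticulum. With 1 library per group, no difference has a replicate check, no test between conditions was possible, and every interval below covers counting error only.

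NMD removes messages on which translation stops ahead of an exon junction. The exon junction complex, left on the message by splicing, is contacted by UPF3B and UPF2, which activate the helicase UPF1. The kinase SMG1 phosphorylates UPF1, and SMG6, an endonuclease, and SMG5 then bind it and bring about decay. General decay begins with shortening of the poly(A) tail by the PAN2-PAN3 and CCR4-NOT deadenylases. Decapping by DCP2 then opens the message to the exonuclease XRN1, and the exosome degrades RNA from the other end. In human cells several NMD factor messages are themselves degraded by NMD, so the pathway limits its own factors.

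Gene reads numbered 3896721 in the SRα siRNA library and 2445200 in the control siRNA library. SRPRA, the siRNA target, had 449 reads in the SRα siRNA library and 507 in the control siRNA library, a ratio of 0.570 once scaled to depth. VIM and NEFM, markers of HEK293T cells, had 1485 and 528 reads in the SRα siRNA library and 771 and 273 in the control siRNA library. Their log2 ratios, SRα siRNA over control siRNA, were 0.31 (95% counting interval 0.18 to 0.44) and 0.32 (0.10 to 0.53), and the part of this in other differences was not tested. KRT8 and KRT18, further markers, stood at -0.30 (-1.14 to 0.55) and -0.10 (-0.59 to 0.40), and 5 of the 7 markers with a row were higher and 2 lower. All 7 were above 1 CPM on average, where CPM is a count scaled to sequencing depth. The 5 markers of blood, liver, endothelium, basal epithelium and fibroblasts together had 1 read in each library.

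Messages of the decay machinery lay close together in the 2 libraries. Of the 45 genes with a row, 44 were measured, that is, averaged 1 CPM or more, and 28 of these had a higher and 16 a lower CPM in the SRα siRNA library. The median log2 ratio, SRα siRNA over control siRNA, was 0.05, against 0.01 over all 12747 measured genes, of which 51.4% were higher. Scaled to library totals, 25 of the 44 were higher, against 45.5% of all measured genes, and the median was 0.02. No member was at least 1.5-fold higher, where 6.55% of all measured genes were, and 1 member, CNOT7, was at least 1.5-fold lower, where 6.97% of genes were. None was 2-fold apart in either direction, against 2.15% of genes that were higher and 2.57% that were lower by that fold.

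The standard deviation of the members' log2 ratios was 0.188, against 0.479 over all measured genes. Members were also read more deeply, with a median of 267 reads in the SRα siRNA library and 160 in the control siRNA library, against 88 and 58 for all measured genes. In the middle range of the members' read sums, between 270.25 and 816 reads over both libraries, the standard deviation was 0.151 over 22 members and 0.173 over the 2762 measured genes in that range. Of these 22 members 63.6% were higher, with a median log2 ratio of 0.080, against 56.1% and 0.025 for the 2762 genes. The half-width of a member's 95% counting interval had a median of 0.288 on the log2 scale. A difference smaller than that was not detectable for a typical member at this depth.

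**Figure D1:**
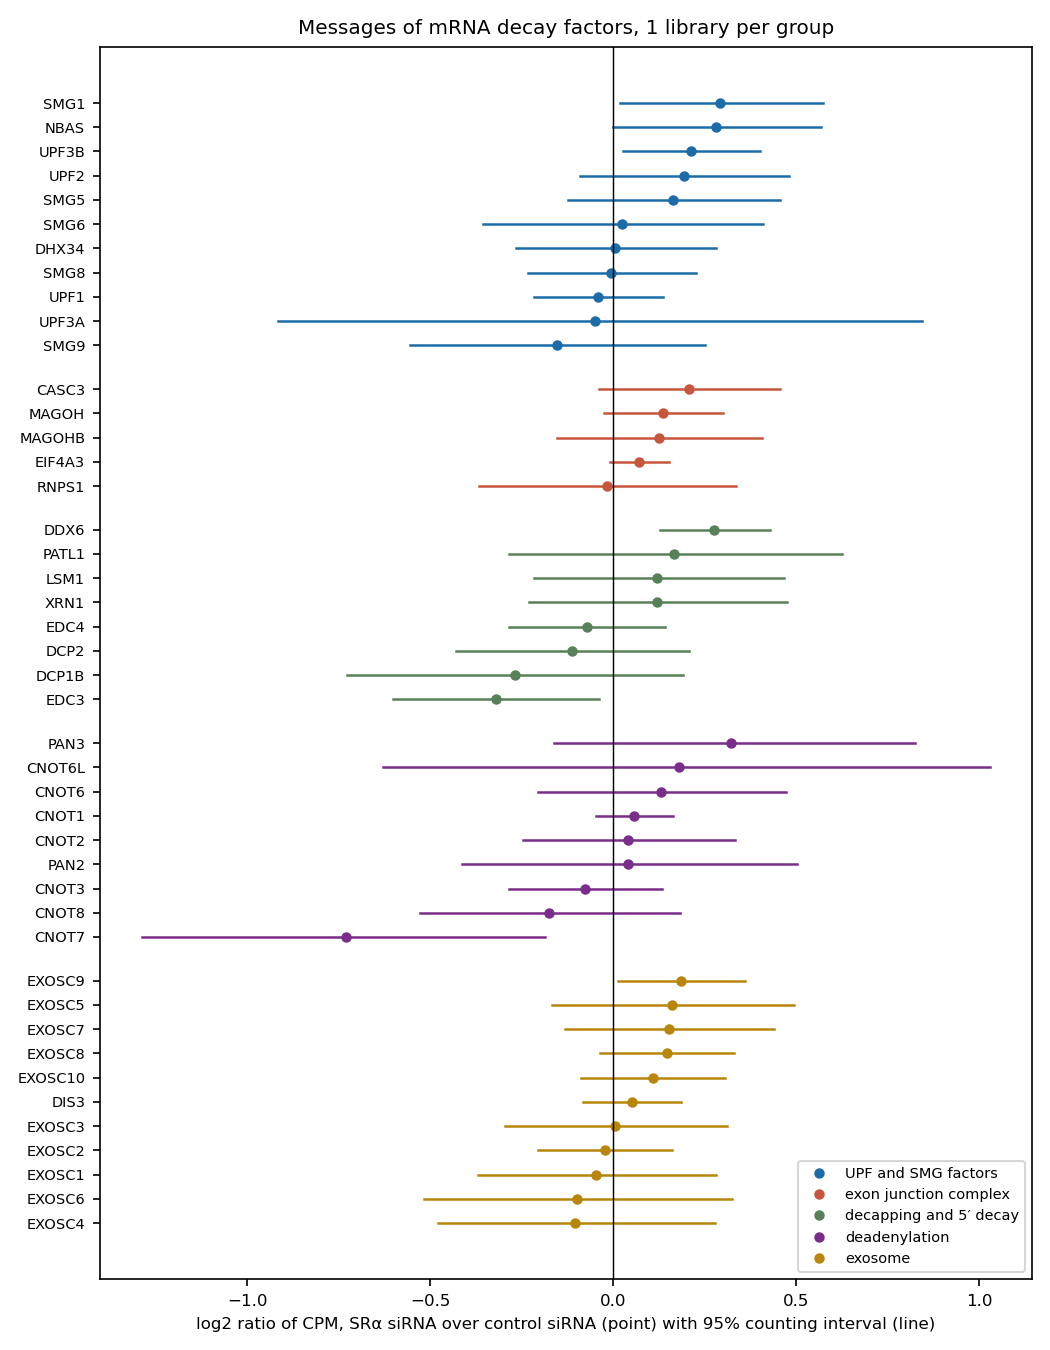
Each point is a member's log2 ratio of CPM, SRα siRNA over control siRNA, and each line its 95% counting interval, with members grouped by role and 1 library per group. CNOT7 at -0.73 stands lowest, and 38 of the 44 lines cross 0.

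Counting intervals lay wholly above 0 for 4 of 44 members, UPF3B, SMG1, DDX6 and EXOSC9, against 5.46% of all measured genes. They lay wholly below 0 for 2 members, EDC3 and CNOT7, against 3.39%. The shares over all measured genes are not matched for depth, as intervals there were wider, with a median half-width of 0.502. These counts compare the 2 libraries and not the conditions. With library totals, with totals less the mitochondrially encoded and 10 most-read genes, or with the trend in GC content removed, DDX6 was the 1 member left above 0, and EDC3 and CNOT7 stayed below.

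**Figure D2:**
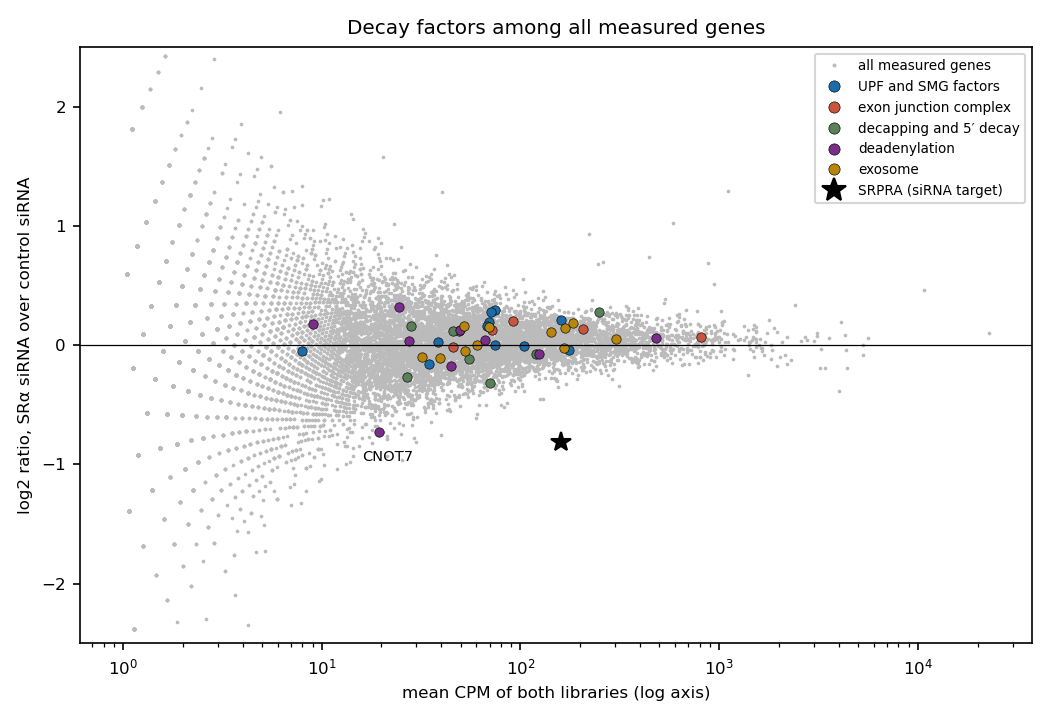
Log2 ratio of CPM, SRα siRNA over control siRNA, against the mean CPM of both libraries on a log axis, for all measured genes in grey, members in colour and SRPRA as a star. Members lie within the band of genes of like level, CNOT7 near its lower edge, and 43 genes beyond 2.5 on the vertical axis are not drawn.

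The 12 UPF and SMG factors included 11 measured genes, of which 7 had a higher and 4 a lower CPM in the SRα siRNA library. Their median log2 ratio was 0.02, or -0.01 with library totals, which turn SMG6 and DHX34 below 0. SMG1 (ENSG00000157106.12), the kinase of UPF1, had 316 reads in the SRα siRNA library and 166 in the control siRNA library, or 82.1 and 67.0 CPM. Its log2 ratio of 0.29 (95% counting interval 0.02 to 0.57) was the highest of the group, though its interval reached 0 in the 3 alternatives just named. SMG1 has many partial copies in the genome, and 18.9% of the 50-base stretches of its longest transcript also occur in transcripts of other genes, so its count is uncertain. That share passed 10% for 8 of the 45 members with a row. Among them were LSM1 at 29.8%, SMG6 at 29.6% and EDC4 at 19.4%, whose counts are uncertain too. UPF3B (ENSG00000125351.6), which bridges the exon junction complex and UPF2, had 664 reads and 172.6 CPM in the SRα siRNA library, against 369 reads and 149.01 CPM in the control siRNA library. The log2 ratio of UPF3B was 0.21 (0.03 to 0.40), with an interval that reached 0 in the same 3 alternatives and no shared stretches in its transcript.

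UPF1 (ENSG00000005007.8), the central helicase, was the best-read member of the group, with 666 reads and 173 CPM in the SRα siRNA library against 441 reads and 178 CPM in the control siRNA library. The interval of its log2 ratio, -0.22 to 0.14 around -0.04, places any difference between these libraries within those bounds as far as counting error goes. UPF2, the adaptor of UPF1, had 286 and 161 reads in the SRα siRNA and control siRNA libraries and stood at 0.19 (-0.09 to 0.48) on the log2 scale. SMG5 had 275 and 158 reads and 0.16 (-0.12 to 0.46). The endonuclease SMG6 had 150 and 95 reads and 0.02 (-0.36 to 0.41). None of these 3 intervals excluded equal levels.

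NBAS, which acts in NMD at the endoplasmic reticulum and in vesicle tethering, had 300 reads in the SRα siRNA library and 159 in the control siRNA library. Its log2 ratio was 0.28, and its interval (-0.00209 to 0.567) ended just short of excluding 0. The helicase DHX34, which like NBAS promotes NMD, stood at 0.01 (-0.27 to 0.28) from 287 and 184 reads. The regulators of the SMG1 kinase lay at or under 0, SMG8 at -0.01 (-0.23 to 0.23) and SMG9, the lowest of the group with 127 and 91 reads, at -0.15 (-0.55 to 0.25). PNRC2, which links UPF1 to decapping, was listed at 2 reads in the SRα siRNA library and 0 in the control siRNA library, and no ratio is given for it. Of the 50-base stretches of its longest transcript, 9.25% also occur in another gene, the pseudogene PNRC2P1. Whether PNRC2 reads were lost as alignments that were not unique was not tested.

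Messages of 6 of these factors, UPF1, UPF2, UPF3B, SMG1, SMG5 and SMG6, are known NMD targets in human cells. Of the 6, 5 were higher in the SRα siRNA library, SMG6 among them not with library totals, and 2, UPF3B and SMG1, had an interval above 0, with a median log2 ratio of 0.18. Over all measured genes 51.4% were higher and 5.46% had an interval above 0, and both UPF3B and SMG1 lost that call with library totals. Measured genes had fewer reads at the median than the 6, so these shares are not matched for depth. The summed reads of the 6 were 2357 in the SRα siRNA library and 1390 in the control siRNA library, a log2 ratio of 0.13 (0.03 to 0.22), or 0.09 (-0.00669 to 0.186) with library totals. UPF1 was the 1 of the 6 below 0, though it stood at 0.03 with the trend in GC content removed. The 6 share no library other than the 2 sequenced, so their number adds no replicate.

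The exon junction complex held the best-read message of the whole set. This was EIF4A3, the helicase that clamps the complex onto RNA, with 3211 reads and 834.5 CPM in the SRα siRNA library, against 1967 reads and 794 CPM in the control siRNA library. Its log2 ratio was 0.07 (-0.01 to 0.15), the narrowest interval of all members. MAGOH, a core subunit, had 835 and 489 reads and 0.14 (-0.03 to 0.30). CASC3, the cytoplasmic subunit, had 380 and 212 reads and was highest of the group at 0.21 (-0.04 to 0.46). RNPS1, a peripheral splicing activator, was lowest at -0.02 (-0.37 to 0.34) from 175 and 114 reads. The 5 measured subunits had a median of 0.12, with 4 higher and 1 lower, and every interval crossed 0.

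MAGOH and MAGOHB encode nearly the same protein from 2 genes, which makes the counting of their reads a question of how far their messages differ. Their coding sequences, 441 and 447 bases long, were identical at 381 of 441 aligned bases (86.4%), and the longest identical run was 38 bases. The last 120 coding bases of each, stop codon included, contain that run and are given here, with the 17 bases that differ in capitals. They come from GENCODE 29 transcripts on GRCh38, both on the minus strand. The MAGOH stretch lies in 2 coding exon segments, chr1:53228872-53228891 and chr1:53227045-53227144, and the MAGOHB stretch in chr12:10607854-10607873 and chr12:10606275-10606374.
MAGOH: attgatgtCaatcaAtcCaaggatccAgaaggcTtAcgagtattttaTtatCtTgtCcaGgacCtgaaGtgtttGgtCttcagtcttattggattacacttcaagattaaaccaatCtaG
MAGOHB: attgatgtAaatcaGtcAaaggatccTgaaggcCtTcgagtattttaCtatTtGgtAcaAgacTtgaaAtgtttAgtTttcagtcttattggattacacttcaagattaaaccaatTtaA

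No 50-base stretch was shared between the coding sequences, so coding reads of at least that length fit only 1 gene of the pair exactly. Pseudogenes share some stretches. Of the 50-base stretches of the longest transcript, 2.12% for MAGOH also occur in MAGOH2P and 1.83% for MAGOHB in MAGOH3P. The read length is not given in the sources used here. MAGOHB had 288 reads in the SRα siRNA library and 170 in the control siRNA library, a log2 ratio of 0.12 (-0.15 to 0.41). There were 2.90 reads of MAGOH per read of MAGOHB in the SRα siRNA library and 2.88 in the control siRNA library. Per kb of annotated exon, the level of MAGOH was 9.62 times that of MAGOHB in the SRα siRNA library and 9.55 times in the control siRNA library. The difference between the 2 genes' log2 ratios was 0.01 (-0.32 to 0.34), a value that no scaling of the libraries affects.

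The MAGOH pair was 1 of 4 pairs of related genes compared in this way, and all 4 intervals of the difference crossed 0. UPF3A, a weaker relative of UPF3B, had 30 reads in the SRα siRNA library and 20 in the control siRNA library, or 0.0452 and 0.0542 reads per read of UPF3B. The difference of UPF3A minus UPF3B was -0.26 (-1.15 to 0.65) on the log2 scale. The deadenylase CNOT6 had 199 and 117 reads and its paralog CNOT6L 37 and 21, a ratio of 5.38 in the SRα siRNA library and 5.57 in the control siRNA library. For CNOT6 minus CNOT6L the difference was -0.05 (-0.97 to 0.84). One gene of each of these pairs thus supplied most of the reads in both libraries. The coding sequences of these pairs were 64.1% and 74.0% identical.

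CNOT7 and CNOT8, the other catalytic subunits of the CCR4-NOT deadenylase, had the largest difference among the 4 pairs. CNOT7 (ENSG00000198791.7) had 56 reads and 14.6 CPM in the SRα siRNA library, against 60 reads and 24.2 CPM in the control siRNA library. Its log2 ratio was -0.73 (-1.29 to -0.19), a ratio of 0.603, and it ranked 12072 from the highest of 12747 measured genes. CNOT8 had 161 reads in the SRα siRNA library and 117 in the control siRNA library, with a log2 ratio of -0.17 (-0.53 to 0.18). There were 0.348 reads of CNOT7 per read of CNOT8 in the SRα siRNA library and 0.513 in the control siRNA library. The difference of CNOT7 minus CNOT8 was -0.56 (-1.22 to 0.10), so the 2 were not told apart at this depth.

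**Figure D3:**
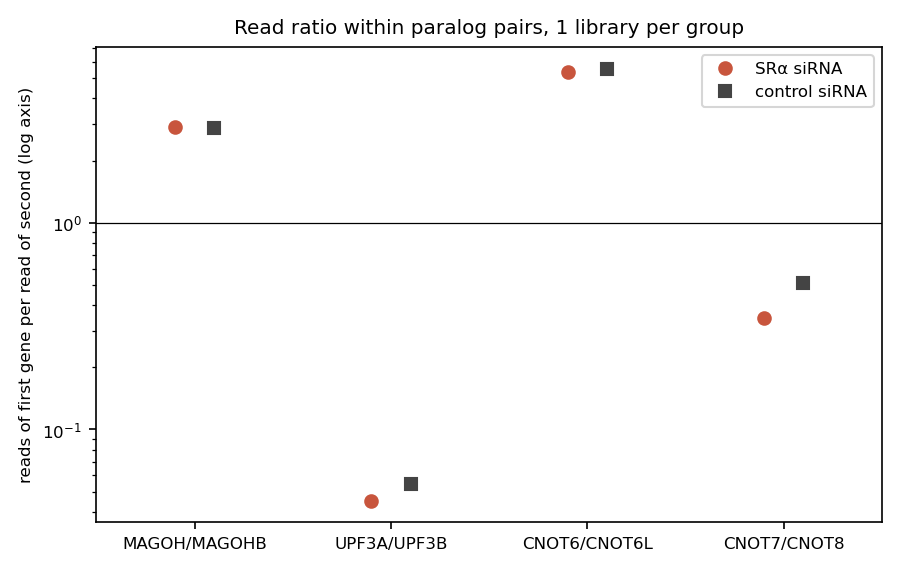
Reads of the first gene per read of the second, on a log axis, for 4 pairs of related genes, with the SRα siRNA library left of the control siRNA library in each pair. The CNOT7/CNOT8 ratio stood at 0.348 in the SRα siRNA library and 0.513 in the control siRNA library, and the MAGOH/MAGOHB ratio at 2.90 and 2.88.

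The other deadenylation genes lay near 0. CNOT1, the scaffold of CCR4-NOT and the best-read member of this group, had 1887 reads and 490.4 CPM in the SRα siRNA library, against 1167 reads and 471 CPM in the control siRNA library, a log2 ratio of 0.06 (-0.05 to 0.16). The regulatory subunits CNOT2 and CNOT3 stood at 0.04 (-0.25 to 0.33) and -0.08 (-0.29 to 0.13). CNOT6 and CNOT6L were at 0.13 (-0.21 to 0.47) and 0.18 (-0.63 to 1.03). PAN2, the catalytic subunit of the second deadenylase, had 0.04 (-0.41 to 0.50), and its partner PAN3, with 105 and 54 reads, had the highest ratio of all measured members at 0.32 (-0.16 to 0.82). Of the 9 genes 6 were higher and 3 lower, with a median of 0.04 and, with CNOT7 at its lower end, a mean of -0.02.

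Of the 8 measured decapping genes 4 were higher and 4 lower, near the 51.4% higher over all measured genes, and 6 of the 8 intervals crossed 0. DDX6 (ENSG00000110367.7), the helicase that couples deadenylation to decapping and holds messages in P-bodies, had 1048 reads in the SRα siRNA library and 557 in the control siRNA library, or 272 and 225 CPM. Its log2 ratio was 0.28 (0.13 to 0.43), and it kept an interval above 0 in all 7 alternative scalings, filters and corrections for which intervals were recomputed. The filters on low counts among these cannot change the interval of a gene, so they add no check. EDC3 (ENSG00000179151.7), an enhancer of decapping that binds DDX6, had 240 reads and 62.4 CPM in the SRα siRNA library, against 193 reads and 77.9 CPM in the control siRNA library. EDC3 stood at -0.32 (-0.60 to -0.04) on the log2 scale. In the annotation, 13.7% of its exonic bases lie under exons of other genes, mainly CLK3 on the opposite strand, and whether strand was used in counting is not given in the sources used here.

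DCP2, the decapping enzyme, had 204 reads in the SRα siRNA library and 142 in the control siRNA library, a log2 ratio of -0.11 (-0.43 to 0.21). The activator DCP1B had 94 and 73 reads and -0.27 (-0.73 to 0.19), and the scaffold EDC4 had 452 and 306 reads and -0.07 (-0.29 to 0.14). Of the 4 genes below 0, which were EDC3, DCP2, DCP1B and EDC4, EDC3 alone had an interval that excluded 0. LSM1, a subunit of the ring that binds shortened tails, stood at 0.12 (-0.22 to 0.46), PATL1, which bridges that ring and DDX6, at 0.16 (-0.28 to 0.62), and XRN1 at 0.12 (-0.23 to 0.47). The median of the 8 genes was 0.02 and their mean -0.01.

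The 11 exosome genes varied least after the exon junction complex, from -0.10 to 0.19, with 7 higher, 4 lower and a median of 0.05, or -0.01 with the trend in GC content removed, and with EXOSC3 below 0 with library totals. EXOSC9 (ENSG00000123737.8), a ring subunit, had 753 reads and 196 CPM in the SRα siRNA library, against 426 reads and 172.03 CPM in the control siRNA library. It was highest at 0.19 (0.01 to 0.36), though its interval, too, reached 0 in the 3 alternatives under which DDX6 alone stayed above. In the annotation 5.39% of EXOSC9 exonic bases lie under exons of other genes, mainly CCNA2. DIS3, the catalytic subunit and the best-read gene of the group, had 1181 and 734 reads and 0.05 (-0.08 to 0.19). EXOSC10, the nuclear exonuclease of the complex, had 571 and 341 reads and 0.11 (-0.09 to 0.31). The share of exonic bases under exons of other genes was larger for DIS3, at 11.2%, and EXOSC10, at 39.3%. It passed 10% for 10 of the 45 members with a row.

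The remaining ring subunits were EXOSC4 at -0.10 (-0.48 to 0.28), the lowest, EXOSC5 at 0.16 (-0.17 to 0.49), EXOSC6 at -0.10 (-0.52 to 0.33), EXOSC7 at 0.15 (-0.13 to 0.44) and EXOSC8 at 0.15 (-0.04 to 0.33). The cap subunits that hold RNA at the entrance of the ring stood at -0.05 (EXOSC1, -0.37 to 0.28), -0.02 (EXOSC2, -0.20 to 0.16) and 0.01 (EXOSC3, -0.30 to 0.31). None of these 8 intervals excluded 0. The 9 ring and cap subunits, which form 1 complex, together had 3256 reads in the SRα siRNA library and 1985 in the control siRNA library, with 5 higher and a median of 0.01.

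Levels per length differed far more between genes than between libraries. CPM was divided by the summed length of a gene's annotated exons, which understates genes with long rarely used exons. EIF4A3 had the highest level, 168 CPM per kb in the SRα siRNA library and 160 in the control siRNA library, and CNOT6L the lowest of measured members, 1.03 and 0.905. Within the UPF and SMG factors, levels ran from 1.35 CPM per kb for UPF3A to 56.0 for UPF3B in the SRα siRNA library, and from 1.40 to 48.4 in the control siRNA library. Subunits of the exosome ring and cap spanned 8.10-fold in the SRα siRNA library and 6.84-fold in the control siRNA library, from EXOSC6 to EXOSC8 in both. The order of levels was nearly the same in both libraries, with a Spearman correlation of 0.992 (Pearson 0.994 of log2 levels) across the 44 measured members, which share their 2 libraries and their exon lengths.

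**Figure D4:**
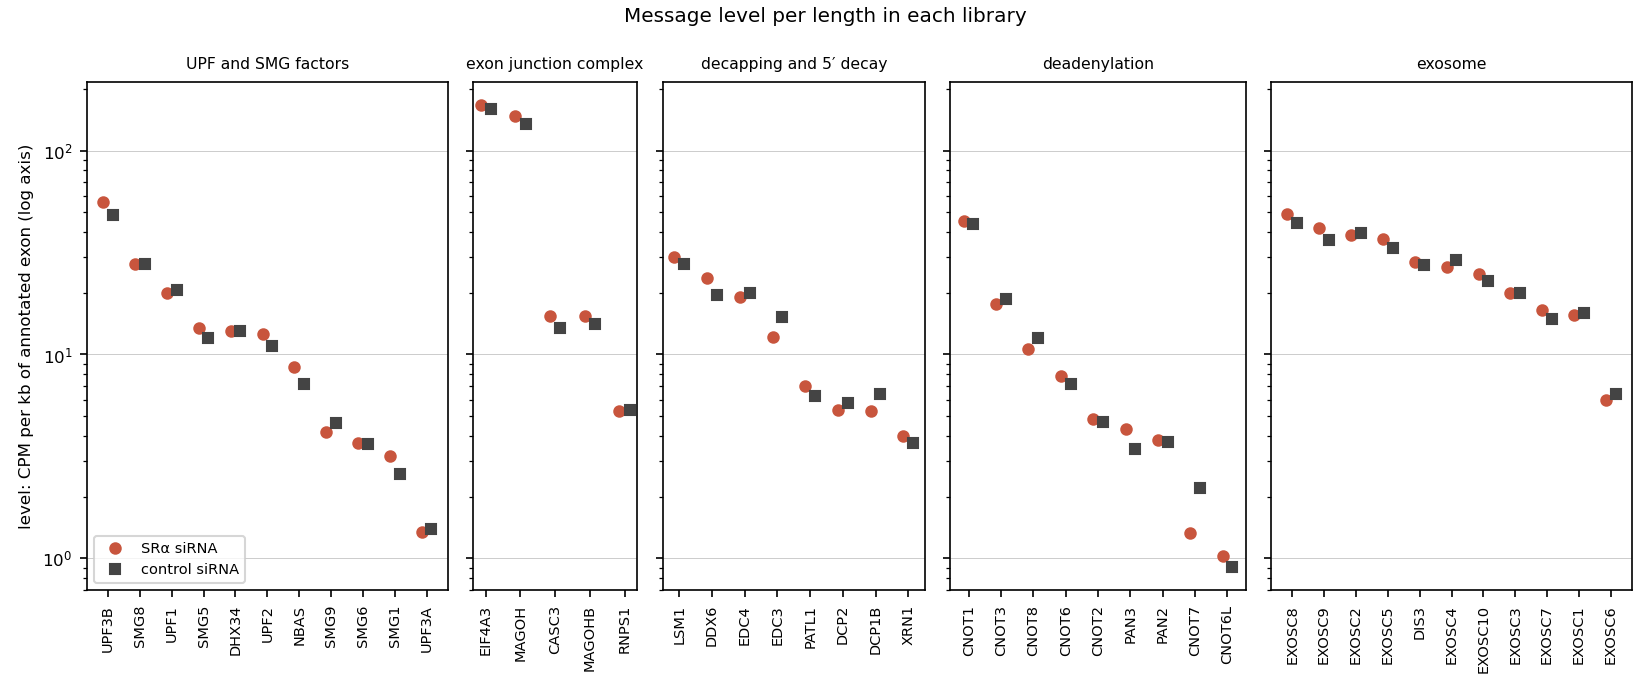
Level in CPM per kb of annotated exon, on a log axis, for each measured member, with the SRα siRNA library (circles) left of the control siRNA library (squares). Within each group the genes keep nearly the same order in both libraries, and CNOT7 shows the widest gap between its 2 marks.

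The 5 groups were set against each other by their summed reads, which weight a gene by its abundance. Together the 45 members took 0.493% of gene reads in the SRα siRNA library (exact binomial interval 0.4861% to 0.50003%) and 0.481% in the control siRNA library (0.472% to 0.490%). For all members the log2 ratio of summed reads was 0.072 (0.039 to 0.106), against 0.036 for the summed reads of all genes. With library totals the value for all members was 0.036 (0.0028 to 0.0692), an interval that still excluded 0. By group, the values were as follows. The log2 ratio of the summed reads was 0.10 (0.02 to 0.18) for UPF and SMG factors and 0.09 (0.03 to 0.16) for the exon junction complex. It was 0.07 (0.01 to 0.14) for the exosome, 0.06 (-0.03 to 0.15) for decapping and 0.02 (-0.06 to 0.10) for deadenylation. With library totals the group values were lower and all 5 group intervals crossed 0, at 0.06 (-0.01 to 0.14), 0.06 (-0.01 to 0.12), 0.04 (-0.03 to 0.10), 0.03 (-0.07 to 0.12) and -0.02 (-0.10 to 0.06) in the same order of groups. In all 10 pairs of groups the interval of the difference crossed 0. The widest difference, UPF and SMG factors minus deadenylation, was 0.08 (-0.03 to 0.19), and no interval of the 10 reached beyond -0.159 or 0.194.

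Ratios were lower at higher GC content over the whole table, where the Spearman correlation was -0.22 and the Pearson correlation -0.21 for 8461 genes averaging 10 CPM or more. For the 44 members these were -0.21 and -0.08. The 22 members lower in GC content, 34.1% to 44.8%, had a median log2 ratio of 0.13 with 16 higher, against 0.06 over all measured genes of that range. The 22 members higher in GC content, 45.2% to 61.5%, had 0.01 with 12 higher, against -0.02 over all measured genes of that range. The part of GC content in the differences between the groups was not tested.

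A list of 70 further genes of the same pathways, of which 67 were measured, was examined beside the members. Of the 67, 42 were higher and 25 lower, with a median log2 ratio of 0.05, and 8 had an interval above 0 and 0 below. The shares over all measured genes were 51.4% higher, 5.46% above 0 and 3.39% below. These shares are not matched for depth. The median for the 67 was 273 reads in the SRα siRNA library and 161 in the control siRNA library, against 88 and 58 for all measured genes. Counts for this list were not recomputed with library totals, which gave lower ratios for the members. Of the 8 intervals above 0, those of DCPS and of the exosome partners MTREX and ZCCHC8 began close to 0, at 0.03, 0.02 and 0.02. LSM2, DDX39B and SKIC2 were listed at 0 reads in both libraries. Whether their reads were lost as alignments that were not unique was not tested, so 0 reads does not show that these messages were absent. Of 12 NMD-linked factors 8 were higher, from STAU2, which recruits UPF1 to target messages, at -0.37 (-0.79 to 0.06) to GNL2, a nucleolar GTPase, at 0.33 (0.20 to 0.46). Of 8 measured exon junction and export factors 6 were higher, from ACIN1 at -0.08 (-0.23 to 0.07) to SAP18 at 0.13 (-0.06 to 0.31), partners in a splicing complex.

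Of 11 measured decapping partners 6 were higher, from PNRC1 at -0.18 (-0.77 to 0.42) to DCPS, which clears cap remnants, at 0.31 (0.03 to 0.61). LSM14A, a partner of DDX6, had 552 reads in the SRα siRNA library and 289 in the control siRNA library, a log2 ratio of 0.30 (0.09 to 0.51), and was named after its value was seen. Of 19 deadenylation partners 9 were higher and 10 lower, from BTG2, an adaptor that binds CNOT7 and CNOT8, at -0.87 (-1.99 to 0.17) from 15 and 18 reads, to TNRC6C, which links microRNA complexes to CCR4-NOT, at 0.39 (-0.32 to 1.14). Of 17 measured exosome partners 13 were higher, from DIS3L2 at -0.26 (-0.79 to 0.28) to C1D, a nuclear cofactor that binds EXOSC10. C1D had 75 reads in the SRα siRNA library and 23 in the control siRNA library, and its log2 ratio of 1.06 (0.38 to 1.81) was the 1 value of the 67 at least 2-fold apart. Over all measured genes 2.15% were higher and 2.57% lower by that fold, so 1 such gene does not set the list apart.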

How the data were processed

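The authors deposited raw counts of reads for each Ensembl gene ID, 1 file per library. Libraries were made with a stranded mRNA kit from TRIzol-extracted RNA, per the labels' protocols. Reads were handled with cutadapt and STAR 2.5.2b on build hg19, per the submitters' processing notes. How reads were counted, whether by strand, and against which annotation is not given in the sources used here. The 5 summary lines of each file name no gene and were left out. Of all entries, 76.5% in the SRα siRNA library and 79.6% in the control siRNA library were alignments that were not unique, so genes with near-identical copies lose reads.

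Libraries were scaled with edgeR 4.0.16 TMM factors (R 4.3.3). Log2 ratios used a prior count of 0.5, and 95% intervals are Clopper-Pearson intervals of the 2 counts given their sum. Differences between genes or groups are conditional odds ratios with exact intervals (scipy 1.17.1). Reads carry no molecular identifiers. Exon length, GC content of the longest transcript and 50-base stretches came from GENCODE 29 (GRCh38) by gene ID, and no hg19 coordinates are given. The calculation was run on simulated counts with counting error only, where intervals held the set fold for 92% to 98% of genes, depending on the fold. That setting has no variation between libraries, so it checks the calculation and not the differences.

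The members and lists were chosen with earlier results of these data known. Values are given in full for UPF1, members whose interval excludes 0, the highest, lowest and most-read member of each group, related pairs, SRPRA, and the highest and lowest gene of each further list, and more briefly for the rest. Alternatives were DESeq2 1.42.0 size factors, other scalings, filters, prior and summaries.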

Additional observations from a re-analysis of the deposited data

How the results depend on the processing

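Of 268 recomputed values over 51 results and 11 alternative settings, 260 moved by less than their counting interval or, for counts, stayed within 1.5 times, and 0 of the values called apart changed sign. A change of scaling shifts all log2 ratios by nearly the same small amount, and filters on low counts leave the ratio of a gene unchanged. Most values could therefore hardly move past their interval, and the number 260 adds little check. With library totals the median log2 ratio of the members was 0.0174, the log2 ratio of their summed reads 0.0359 and the number of intervals above 0 was 1. That number was also 1 with totals less the mitochondrially encoded and 10 most-read genes, and with the trend in GC content removed. With no filter on low counts 1 member, PNRC2 with 2 reads and 0 reads, was at least 1.5-fold higher by fitted ratio. With the longest transcript as length, a choice made after seeing the data, the level of UPF3A was 0.0443 times that of UPF3B in the SRα siRNA library and 0.0532 times in the control siRNA library, against 0.0241 and 0.0289 with all exons. No paired analysis was possible because each group has 1 library. Depth limits most members: at a median of 267 and 160 reads, half-widths with a median of 0.288 leave small differences undetectable.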
